A study of Mus musculus with 5 samples.

Results

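Hedgehog signalling was followed in newborn mouse ovaries through 9 genes, the ligand genes Dhh, Ihh and Shh, the receptor and inhibitor genes Ptch1 and Hhip, the signal transducer gene Smo, and the transcription factor genes Gli1, Gli2 and Gli3. The members were every probe set of the array whose single gene symbol was one of these 9, dim ones included. That gave 21 probe sets for 9 of the 18193 genes named on the array, among 45037 probe sets tested. A probe set is a group of short oligonucleotides on the array that measures 1 transcript sequence. The samples were 3 pools of ovaries from Lhx8 null females (replicates 1, 2 and 3) and 2 pools from wild type females (replicates 2 and 3). All were taken at postnatal day 0.5 on the C57/BL6/129SVEV Hybrid background, each pool held 50 ovaries from at least 25 animals, and each was read on 1 array. Lhx8 codes for a homeodomain protein that oocytes use to control transcription. The construction of its null allele is not stated in the sources used here. Whole ovaries were pooled, so a lower signal from fewer cells of a type and one from less RNA per cell cannot be told apart. The same holds for a higher signal from a larger share of such cells and one from more RNA per cell.

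Hedgehog ligands are secreted proteins that bind Patched receptors on neighbouring cells. Unbound Patched 1 keeps Smoothened inactive; once it binds a ligand, Smoothened signals through the primary cilium and the GLI transcription factors switch to activating their targets. Gli1, Ptch1 and Hhip are themselves targets of the pathway in many mouse tissues and serve as readouts of it. In the mouse ovary, granulosa cells are known to make DHH and IHH, the oocyte factor GDF9 is known to promote their expression, and the responding cells lie in the stroma and later theca around the follicles.

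The label check and the state of the arrays came first. Lhx8 had signals of 332.6, 159 and 347.4 on the null arrays, against 6450.1 and 5223.1 on the wild type arrays (log2 fold change -4.45, SE 0.30). The place of its probe set relative to the deleted part is likewise not stated. The groups also differed in technical features. The null arrays read the bacterial BioC spike control 2.12 times brighter than the wild type arrays did. The signal of the 3' over the 5' probe set of Actb, which reads RNA integrity, was 1.48 to 1.69 on null and 1.39 to 1.43 on wild type arrays. The same ratio of Gapdh overlapped between the groups, at 0.658 to 0.802 on null and 0.625 to 0.666 on wild type arrays. The part of these differences in the results below was not tested.

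Of the 9 Hedgehog genes, Ptch1 fell in Lhx8 null ovaries while Smo, Gli2 and Gli3 rose. The 3 ligand genes, Gli1 and Hhip did not pass the test and had low signals in both groups. Each gene was judged at the probe set that was brightest over all arrays, on the scale log2(signal + 16) after quantile normalisation (limma, p two-sided and adjusted by Benjamini-Hochberg over all 45037 probe sets, threshold 0.05). So 1 of 9 genes was lower and 3 were higher, where 13.5% of all 18193 genes were lower and 14% higher by the same rule. At the level of probe sets 2 of the 21 were lower and 5 higher, against 10.3% lower and 10.7% higher among all probe sets tested. The median log2 fold change of the 9 genes was -0.32, beside -0.02 over all genes. That median is the value of Gli1, which had low signals and no call. Without the quantile step Gli1 stood at -0.08 and the median over all genes at 0.06. The signals of the groups did not overlap for 5 of the 9 genes, a share close to the 55.7% among all genes. With 9 genes these counts do not set the Hedgehog genes apart from the rest of the array.

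**Figure D1:**
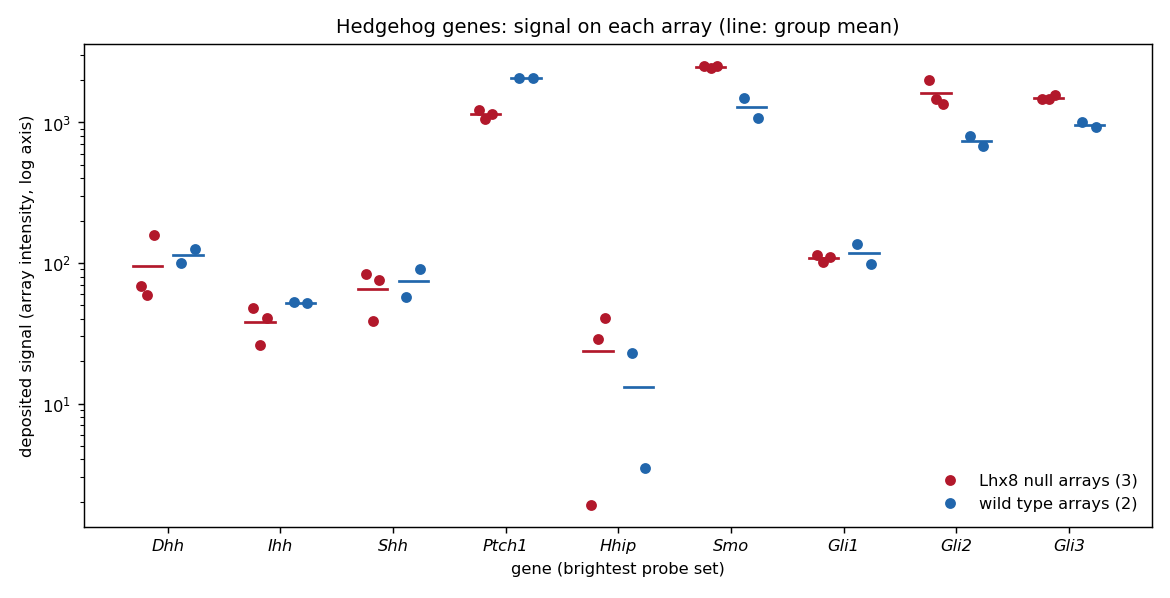
Deposited array signal (log axis) of each Hedgehog gene at its brightest probe set, with 1 point per array, Lhx8 null arrays in red on the left and wild type arrays in blue on the right of each pair, and a line at the group mean. The null points of Ptch1 lie below the wild type points and those of Smo, Gli2 and Gli3 above them, while Dhh, Shh, Gli1 and Hhip overlap between groups. Heights of different genes are not comparable, since probe sets differ in brightness.

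Ptch1, the ligand receptor that holds Smoothened inactive and is itself a target of the pathway, had the lower signal in null ovaries at 2 of its 3 probe sets. At the brightest (1428853_at) it had 1230.6, 1066.6 and 1155.8 in null ovaries, against 2063.3 and 2074.8 in wild type ovaries (values always in the order of the replicate numbers). All null arrays lay well below both wild type arrays, and within each group the values were close. The means were 1151 ± 82.1 (SD, n = 3) in null and 2069 ± 8.13 (SD, n = 2) in wild type ovaries, and Ptch1 fell by 0.78 in log2 units (SE 0.12, 95% confidence interval -1.06 to -0.51, limma adjusted p = 0.00282). This change stood at the 14.01th percentile of the fold changes of all genes, so many genes fell further. A second, dim probe set (1450824_at) had 4.1, 4.7 and 28.1 in null ovaries, against 78.8 and 82.3 in wild type ovaries. It too had no overlap and fell by 2.04 (SE 0.45, limma adjusted p = 0.0142), a size that depends on the added constant at such low signals (-3.34 with 1 and -1.05 with 64 added). That call was lost without null replicate 2 (adjusted p = 0.0529) and without either wild type array (adjusted p = 0.0864 and 0.0948). The third (1439663_at) had 78.1, 38.4 and 22.5 in null and 60.5 and 34.3 in wild type ovaries, overlapped, and gave -0.34 (95% confidence interval -1.40 to 0.72).

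Hhip encodes a membrane protein that binds Hedgehog ligands and withholds them from Patched, and like Ptch1 it is a target of the pathway. None of its 4 probe sets rose above a signal of 40.5 on any array. The brightest had 1.9, 29 and 40.5 in null ovaries, against 22.9 and 3.5 in wild type ovaries, with both wild type values inside the range of the null arrays. Its log2 fold change was 0.25 with a 95% confidence interval of -1.05 to 1.54, wide enough to hold a doubling or a halving. The other Hhip probe sets gave -0.14, -0.23 and 0.15, and a change of Hhip was not detectable with these arrays.

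Smo encodes Smoothened, the membrane protein that carries the signal once Patched 1 is bound by ligand. At its brightest probe set (1427049_s_at) it had 2526.4, 2438.7 and 2504 in null ovaries, against 1502.4 and 1083.8 in wild type ovaries. The null arrays were nearly equal and all above the wild type arrays, which differed more between themselves. The means were 2489.7 ± 45.6 (SD, n = 3) in null and 1293 ± 296 (SD, n = 2) in wild type ovaries, and Smo rose by 1.01 on the log2 scale (SE 0.15, 95% confidence interval 0.67 to 1.34, limma adjusted p = 0.00223). A second probe set (1427048_at), annotated to the same source sequence, had 1223, 1741 and 1814.9 in null and 1370.9 and 910.3 in wild type ovaries. Here null replicate 1 fell between the wild type arrays, and the log2 fold change of 0.53 did not pass (SE 0.22, limma adjusted p = 0.131). The third (1442215_at) stayed at or below 5 on every array. With the 3 probe sets averaged Smo stood at 0.50 and just missed the threshold (adjusted p = 0.0509).

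Gli2 and Gli3 encode the zinc finger proteins that relay the signal to DNA. In mouse tissues GLI2 is known mainly as an activator, and GLI3 mainly as a repressor when no ligand is present. Gli2 at its brightest probe set (1459211_at) had 2003.2, 1472.7 and 1358.5 in null ovaries, against 802.1 and 681.2 in wild type ovaries. Null replicate 1 was the highest, and all null arrays lay above the wild type arrays. Gli2 averaged 1611 ± 344 (SD, n = 3) in null and 742 ± 85.5 (SD, n = 2) in wild type ovaries and rose by 1.13 (SE 0.18, 95% confidence interval 0.70 to 1.55, limma adjusted p = 0.00385). Its other probe set (1446086_s_at), annotated to the same source sequence, had 514.8, 479.9 and 522.1 in null and 316.1 and 213.1 in wild type ovaries and rose by 0.84 (SE 0.20, adjusted p = 0.0191). The pair of probe sets went the same way without overlap, though the second lost its call without null replicate 2 (adjusted p = 0.0564), null replicate 3 (adjusted p = 0.0678) or wild type replicate 3 (adjusted p = 0.139). It was also not called under median centring (0.67, adjusted p = 0.0552) or without the variance trend (adjusted p = 0.0599).

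Gli3 had 1458.3, 1458.2 and 1559.7 in null ovaries at its brightest probe set (1456067_at), against 1009.1 and 921.7 in wild type ovaries. The groups were apart and the spread within each was small. Gli3 averaged 1492 ± 58.6 (SD, n = 3) in null and 965 ± 61.8 (SD, n = 2) in wild type ovaries and rose by 0.67 (SE 0.12, 95% confidence interval 0.40 to 0.95, limma adjusted p = 0.00552). A second probe set (1455154_at), from another source sequence, had 754.1, 847.9 and 902.3 in null and 568.1 and 451.6 in wild type ovaries and rose by 0.70 (SE 0.16, adjusted p = 0.0179). It too was not called without null replicate 2 (adjusted p = 0.065), null replicate 3 (adjusted p = 0.069) or wild type replicate 3 (adjusted p = 0.141), nor under median centring (0.45, adjusted p = 0.133) or without the variance trend (adjusted p = 0.0782). The third (1450525_at), whose source sequence is a RefSeq transcript, was dim and gave -0.20 (95% confidence interval -0.95 to 0.54). Its signals were 85.6 to 123.4 in null and 89.6 to 112.1 in wild type ovaries. Among all genes, the fold changes of Gli3, Smo and Gli2 stood at the 84.36th, 92.07th and 93.76th percentile.

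The rises rest on few arrays and on the scaling between them. Without wild type replicate 3 Gli2 at 1.02 and Gli3 at 0.61 no longer passed, while Smo at 0.79 did. Fewer genes passed over the whole array in that fit as well. With each array centred on its median Gli3 stood at 0.37 and did not pass (adjusted p = 0.11), Smo at 0.71 and Gli2 at 0.84 passed, and Ptch1 fell by 1.09. That scaling moved the median log2 fold change of all genes to -0.18, and higher genes then made up 32.44% of all calls in place of 50.88%.

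Gli1 encodes the GLI protein that is induced by the pathway and is often read as its activity. Its 1 probe set (1449058_at) had 113.2, 101.5 and 110.1 in null ovaries, against 136.1 and 97.7 in wild type ovaries. The null arrays lay inside the range of the wild type arrays. The log2 fold change was -0.32 (SE 0.31, limma adjusted p = 0.535), and its 95% confidence interval of -1.02 to 0.39 includes both no change and a fall as large as that of Ptch1.

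**Figure D2:**
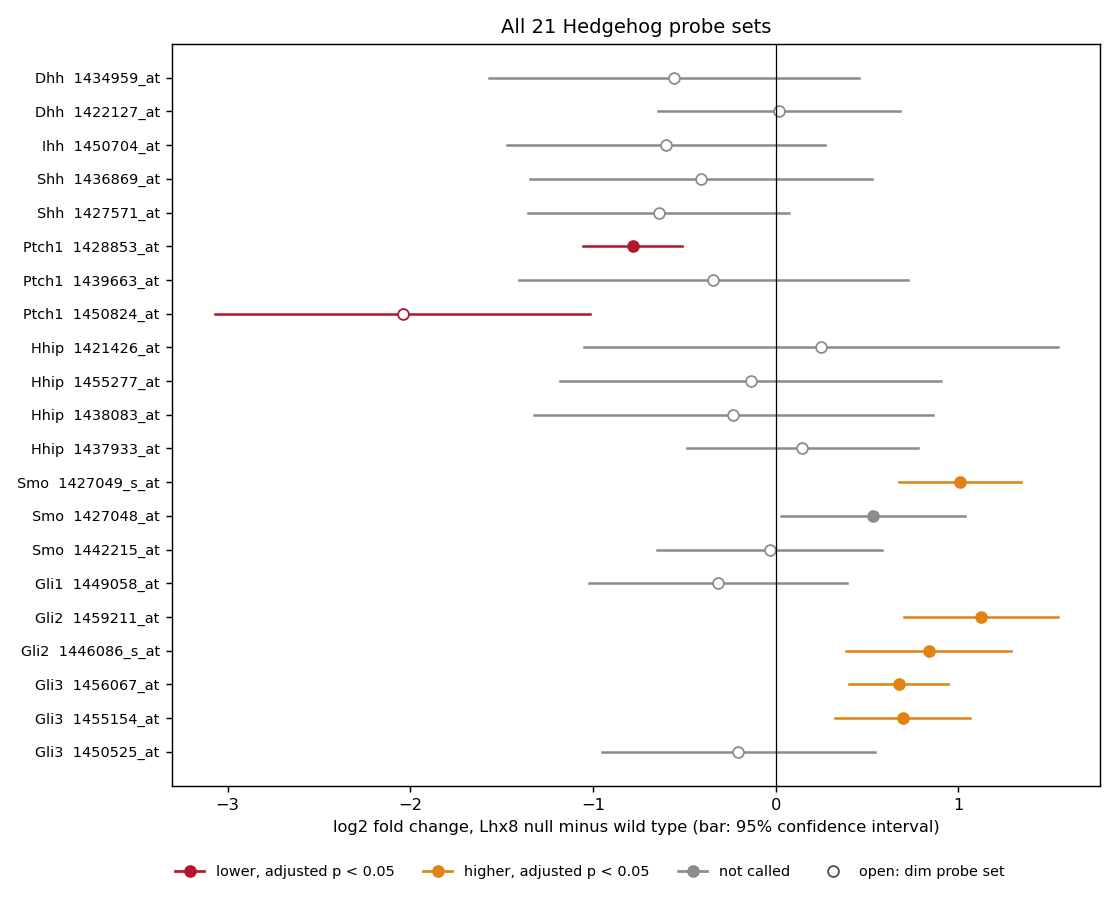
Log2 fold change (Lhx8 null minus wild type, horizontal axis) of each of the 21 Hedgehog probe sets with its 95% confidence interval. Red marks lower and orange higher calls, grey no call, and open circles the 14 probe sets with a mean level under 7.37 on the log2 scale. The intervals of all 7 bright probe sets exclude 0, 1 of them without a call, while 13 of the 14 dim ones are not called.

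The 3 ligand genes were dim in both groups. A gene was called dim here when its level was in the lowest 40% of all genes, a signal below about 150.0, and Dhh, Ihh, Shh, Gli1 and Hhip were. Desert hedgehog, the ligand of granulosa and Sertoli cells, had 69, 58.9 and 157.2 at its brighter probe set (1434959_at) in null ovaries, against 100.6 and 125.9 in wild type ovaries. Null replicate 3 was above both wild type arrays and the other null arrays were below them. Dhh gave a log2 fold change of -0.56 with a 95% confidence interval of -1.57 to 0.46. Its other probe set did not exceed 9.1 on any array and gave 0.02.

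Indian hedgehog, also a granulosa ligand, had 47.5, 25.9 and 40.6 in null ovaries, against 52.9 and 51.7 in wild type ovaries. Every null array lay below both wild type arrays, by a margin smaller than the spread among the null arrays. The log2 fold change of Ihh was -0.60 (SE 0.38, 95% confidence interval -1.47 to 0.27, limma adjusted p = 0.319). Sonic hedgehog, a ligand better known from limb, gut and nervous system, had 82.9, 38.9 and 75.7 in null and 57.4 and 91.1 in wild type ovaries, with overlap. Shh gave -0.41 (95% confidence interval -1.35 to 0.53) there and -0.64 (limma adjusted p = 0.194) at its other probe set, where no array exceeded 18.2. For all 3 ligands the brightest probe set had a negative estimate, and all 3 intervals include 0. Without the quantile step the estimates were nearer to no change, at -0.32 for Dhh, -0.36 for Ihh and -0.16 for Shh. So neither a fall nor an unchanged level is shown.

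The promoter windows of the called genes are shown because Ptch1 moved against Smo, Gli2 and Gli3 and because pathway targets are often recognised by GLI sites. Sequences are from RefSeq (build GRCm38.p6) and run 5′ to 3′ from 250 bases before to 50 after an annotated transcript start. Ptch1 is at chr13:63565686-63565985, minus strand, Smo at chr6:29735247-29735546, plus strand, Gli2 at chr1:119053570-119053869, minus strand and Gli3 at chr13:15463473-15463772, plus strand. Capitals mark the GC box GGGCGG or its reverse complement CCGCCC, the element bound by SP family factors.
Ptch1: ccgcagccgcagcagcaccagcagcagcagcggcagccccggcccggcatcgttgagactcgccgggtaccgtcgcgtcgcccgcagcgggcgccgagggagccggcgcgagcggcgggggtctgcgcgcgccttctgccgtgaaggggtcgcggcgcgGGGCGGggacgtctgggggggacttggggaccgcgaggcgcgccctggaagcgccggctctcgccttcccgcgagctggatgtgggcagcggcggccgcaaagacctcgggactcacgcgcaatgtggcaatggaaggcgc
Smo: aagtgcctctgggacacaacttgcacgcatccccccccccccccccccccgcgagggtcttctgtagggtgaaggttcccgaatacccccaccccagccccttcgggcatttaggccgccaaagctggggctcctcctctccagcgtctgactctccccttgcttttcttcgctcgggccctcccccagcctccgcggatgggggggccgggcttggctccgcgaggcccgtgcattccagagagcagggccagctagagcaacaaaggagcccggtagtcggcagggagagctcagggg
Gli2: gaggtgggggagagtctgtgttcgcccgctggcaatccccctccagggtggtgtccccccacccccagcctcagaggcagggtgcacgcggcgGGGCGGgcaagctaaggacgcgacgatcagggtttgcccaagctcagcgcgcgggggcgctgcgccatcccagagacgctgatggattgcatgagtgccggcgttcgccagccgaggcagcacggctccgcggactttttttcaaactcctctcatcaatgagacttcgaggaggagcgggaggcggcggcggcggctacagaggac
Gli3: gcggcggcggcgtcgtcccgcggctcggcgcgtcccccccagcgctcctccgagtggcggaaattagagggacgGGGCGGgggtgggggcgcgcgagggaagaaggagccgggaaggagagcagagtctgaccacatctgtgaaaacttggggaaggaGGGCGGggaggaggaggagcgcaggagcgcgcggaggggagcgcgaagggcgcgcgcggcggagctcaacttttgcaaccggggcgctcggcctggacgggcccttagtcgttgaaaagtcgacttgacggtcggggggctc

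The table held 1 window for each of 7 members, all but Shh and Gli1. These windows were rich in G and C, with 61.7% for Dhh, 67.3% for Gli2, 67.7% for Smo, 71.0% for Gli3, 72.7% for Ihh, 73.7% for Hhip and 76.3% for Ptch1. The median over all 32851 promoter windows was 52.7%, with quartiles of 45.7% and 61.7%. A GC box stood in 6 of the 7, all but Smo, against 35.7% of all windows. Ptch1 and Gli2 held 1 each, Gli3, Ihh and Hhip 2 each and Dhh 4. The GLI consensus GACCACCCA (reverse TGGGTGGTC) was in 0 of the 7 and in 0.253% of all windows. TAATTA, a core that many homeodomain proteins bind and that reads the same on either strand, was in 0 of the 7 and in 5.29% of all windows. At these shares 0 of 7 was likely for either motif, so the counts do not show whether members have such sites. Both strands were searched and overlapping matches counted; the GC box was the 1 motif found, so matches of different motifs could not overlap. So the lower gene Ptch1 and the higher genes Gli2 and Gli3 shared a GC-rich window with a GC box. The window of Smo was also GC-rich but had no GC box. The share of windows with a GC box was not compared with windows of like G and C content.

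Other genes of the pathway were taken from 4 lists covering ligand release, co-receptors, signal transduction and reported targets. Of 35 genes measured 3 were lower and 11 higher (limma, adjusted p below 0.05), with a median log2 fold change of 0.28, and the other 21 did not pass. By the same rule 13.5% of all genes were lower and 14% higher. The number of higher genes was smaller when either wild type array was left out. Over all genes the number of higher calls was smaller then as well.

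The co-receptors had the most even direction of the 4 lists, with 4 of 5 higher, the fifth uncalled and a median of 1.02. By limma 0 were lower, also at an unadjusted p below 0.05. CDON, GAS1 and BOC are cell surface proteins that present Hedgehog ligands to Patched. Cdon had 6118.3, 5255.7 and 5117.8 in null ovaries, against 1508.9 and 1569.2 in wild type ovaries, with no overlap, and rose by 1.86 (SE 0.13, adjusted p = 9.82e-05). Gas1 had 13349.5, 12022.7 and 12323.9 in null and 5675.5 and 5406.3 in wild type ovaries, again apart, and rose by 1.09 (SE 0.11, adjusted p = 0.000392). Gas1 stood at 0.46 (adjusted p = 0.113) with its probe sets averaged, where a dim one with signals of at most 85.7 counts as much as the others. Gpc3, a glypican that competes with Patched for ligand, had 3642.4, 3480.7 and 3508.5 in null and 1963.5 and 1662.7 in wild type ovaries and rose by 1.02 (SE 0.12, adjusted p = 0.000835). Boc, named after its values were seen, rose by 0.64 (adjusted p = 0.0338), but was not called once wild type replicate 2 or 3 or null replicate 2 or 3 was left out (adjusted p from 0.0523 to 0.228), nor under median centring (adjusted p = 0.216), without a variance trend (adjusted p = 0.113) or with its probe sets averaged (adjusted p = 0.313). Lrp2, a large endocytic receptor that binds SHH, was dim and uncalled at its brightest probe set (0.96, adjusted p = 0.0908). Another dim Lrp2 probe set had 160.4, 155.8 and 162.8 in null ovaries, against 23.7 and 20 in wild type ovaries, and rose by 1.98 (adjusted p = 0.00422), while its last one gave -0.25 and did not pass.

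Of 6 genes for ligand maturation and release, 1 was lower and 0 higher by limma (2 higher at an unadjusted p below 0.05), with a median of -0.07. That gene was Hhat, the acyltransferase that attaches palmitate to Hedgehog ligands. It had 118.2, 110 and 159.1 in null ovaries, against 461.7 and 420.6 in wild type ovaries, and fell by 1.79 (SE 0.26, adjusted p = 0.00238). Its second probe set went the same way, at 76.4 to 106.2 in null and 257.6 to 350 in wild type ovaries. Disp1, whose product releases ligand from the cell, was named after its values were seen because its probe sets differed: -0.23 at the brightest and -1.33 (adjusted p = 0.00447) at the other.

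Of 14 genes for transduction and the cilium, 2 were lower and 3 higher at the brightest probe set (median -0.15). Gsk3b, named after its values were seen, was uncalled there (-0.13). Other Gsk3b probe sets rose by 1.62, 0.88 and 1.91 and were called, while the rest gave -0.02 and 0.62 without a call. Stk36, a kinase related to the fly Fused protein and needed in mice for motile cilia, had 106.5, 84 and 75.7 in null ovaries, against 299.5 and 299 in wild type ovaries. It was apart between groups and fell by 1.76 (SE 0.27, adjusted p = 0.00285), at a mean level counted as dim. Kif3a, a motor subunit that builds cilia, had 1035.5, 1017.6 and 1087.7 in null and 1876.1 and 2032.9 in wild type ovaries and fell by 0.83 (SE 0.12, adjusted p = 0.00205). Its call was lost with 4 probe sets averaged (-0.41, adjusted p = 0.0515). Evc and Evc2, partners at the base of the cilium that act downstream of Smoothened, rose by 1.15 (SE 0.21) and 0.87 (SE 0.16). Neither Evc nor Evc2 was called without wild type replicate 3 (adjusted p = 0.071 and 0.0651). Sufu, which holds GLI proteins inactive, rose by 0.50 (adjusted p = 0.0388). That call was lost under median centring (0.25, adjusted p = 0.359), without a variance trend (adjusted p = 0.127), with its probe sets averaged (-0.0034) and without any 1 of the arrays other than null replicate 1 (adjusted p from 0.0976 to 0.208).

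Of 10 further genes reported as targets in other tissues, 4 were higher and 0 lower by limma (0 lower also at an unadjusted p below 0.05), with a median of 0.28. Nr2f2, a nuclear receptor of mesenchyme, had 2901.6, 1584.5 and 1874.2 in null ovaries, against 1004.6 and 963 in wild type ovaries, and rose by 1.10 (SE 0.23, adjusted p = 0.0125). Null replicate 1 was the highest, and Nr2f2 was not called without wild type replicate 2 (adjusted p = 0.0943), wild type replicate 3 (adjusted p = 0.108) or the variance trend (adjusted p = 0.0725). Ccnd1, a cyclin of the G1 phase, had 1904.4, 1886.7 and 2437.9 in null and 891.6 and 1157.8 in wild type ovaries and rose by 1.06 (SE 0.17, adjusted p = 0.00321). Snai1, a repressor of epithelial genes, rose by 1.04 (adjusted p = 0.0208) but was not called once wild type replicate 2 or 3 or null replicate 2 or 3 was left out (adjusted p from 0.0584 to 0.111). Bcl2, named after its values were seen, rose by 0.59 (adjusted p = 0.00969), and was not called under median centring (adjusted p = 0.173), without the variance trend (adjusted p = 0.0734) or without either wild type array (adjusted p = 0.0633 and 0.0638). These genes are also known targets of other signals. Mycn and Ccnd2, named after their values were seen, were uncalled at their brightest probe sets (-0.33 and 0.28). A dim Mycn probe set was called lower (-1.22), and Ccnd2 probe sets at 0.59, 1.57 and 1.68 were called higher. The remaining probe sets of both genes did not pass.

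**Figure D3:**
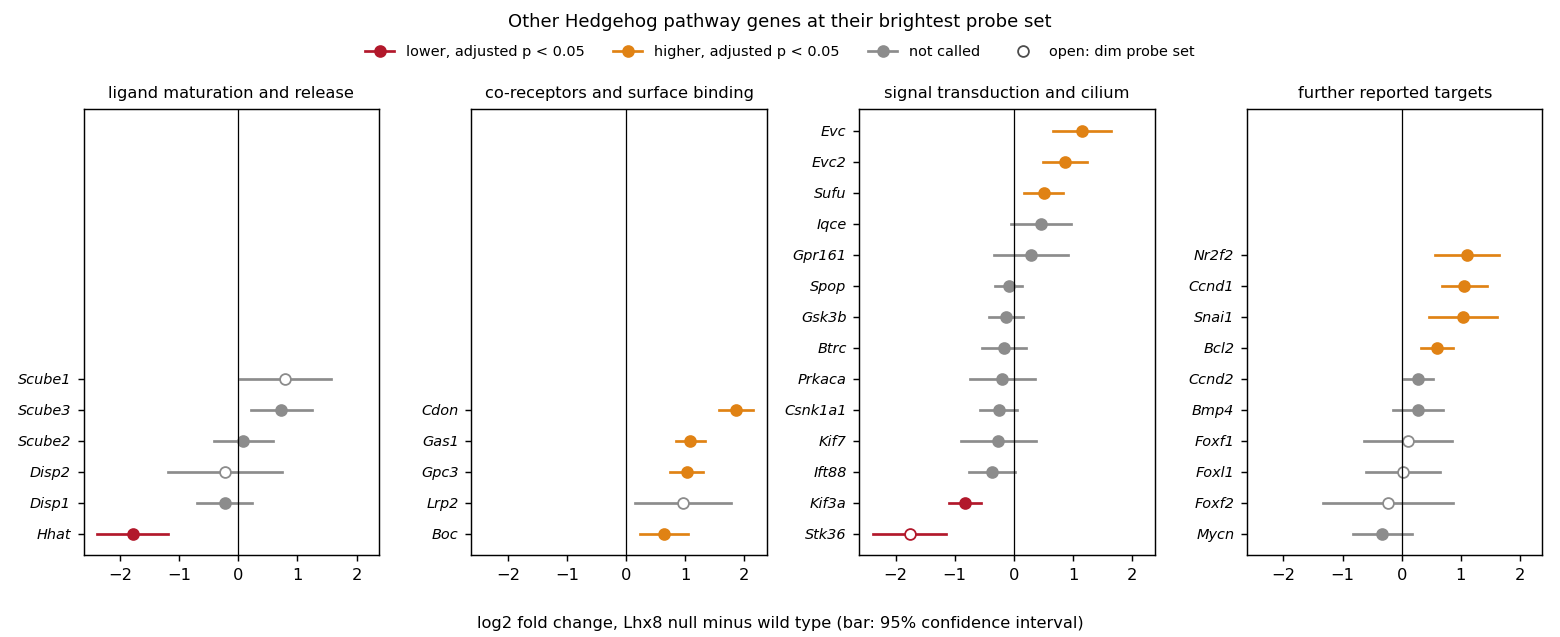
Log2 fold change (Lhx8 null minus wild type, horizontal axis) with its 95% confidence interval for the 35 other Hedgehog pathway genes, by list. Red marks lower and orange higher calls, grey no call, and open circles dim probe sets. All 5 co-receptor genes lie to the right of 0 and 4 of them are called.

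Markers of the cells that make and receive Hedgehog ligands also differed between the groups, and their part in the results above was not tested. Oocyte markers fell in 7 of 7 cases (median -3.46), with summed signals of 2095.9 to 2736.6 on null arrays and 25297 to 27890.9 on wild type arrays. Among them Gdf9 had 66.4, 112.6 and 90.4 in null and 1862.1 and 3223.7 in wild type ovaries, and fell by 4.62 (SE 0.31, adjusted p = 9.53e-05). Granulosa markers, of the cells known to make DHH and IHH, fell in 5 of 7 cases and the others did not pass (median -0.98). Their summed signals were 10130.9 to 10932.3 on null and 18193.8 to 19171.1 on wild type arrays. The granulosa genes Inhbb and Fst fell by 1.71 (SE 0.18) and 1.17 (SE 0.13), while Amh, made by growing follicles, stayed at or below 10.1 on every array.

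Of 5 theca and steroidogenic markers 2 were lower, namely Nr5a1 (-1.33) and Hsd3b1 (-1.16), and the others did not pass (median -0.90). Their summed signals were 1499.2 to 1708.3 on null and 3299.5 to 3519.5 on wild type arrays. Most of these sums came from Hsd3b1, with means of 996 in null and 2326 in wild type ovaries. Cyp11a1, dim and uncalled, gave 0.38 at its brightest probe set and -0.60 and -0.27 at the others. Cyp17a1, the defining enzyme of theca cells, was at 45.4 or below on every array, with the groups overlapping. Stromal markers rose in 5 of 6 cases and the other did not pass (median 0.78). Their summed signals were 56976.3 to 61799.7 on null and 30066.9 to 32618.4 on wild type arrays. Col1a1 rose by 1.89 (SE 0.24) and Mfap5 by 1.03 (SE 0.14). Smooth muscle markers rose in 5 of 5 cases (median 2.10), at 25137.2 to 34090.3 summed on null and 7253.4 to 8541.7 on wild type arrays, with Tagln at 2.05 and Des at 2.49.

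The medians of the epithelial marker lists lay above the fold change of every Hedgehog gene. Of 7 oviduct and mesonephric markers 6 rose and the other did not pass (median 3.16), led by Wfdc2 at 5.24 and Ovgp1 at 4.30, with summed signals of 10781.2 to 13293.1 on null and 557 to 743.7 on wild type arrays. Mesothelial markers rose in 5 of 5 cases (median 2.01), at 18738.7 to 20642.4 summed on null and 4957.7 to 5143.6 on wild type arrays, with Upk1b at 1.94 and Msln at 2.73. Endothelial markers rose in 3 of 5 cases and the others did not pass (median 0.64), at 3925.4 to 4456.9 on null and 2431.3 to 2867.8 on wild type arrays, with Kdr at 1.10 and Pecam1 at 0.71. Of 4 markers of Schwann cells, which make DHH in nerves, none passed at the brightest probe set (limma, 0 lower and 0 higher, 1 higher at an unadjusted p below 0.05, median 0.37). Their summed signals were 603.6 to 633.3 on null and 359 to 455.3 on wild type arrays. Another dim Sox10 probe set had 8.8, 10.5 and 20.6 in null and 98.9 and 60.6 in wild type ovaries. It was called lower (-1.90, limma adjusted p = 0.0116), while the brightest gave 0.285 and the last -0.295 without a call. Of 5 Sertoli markers 1 was lower and 2 higher (median 0.12), at 1783.1 to 2393.3 summed on null and 2725.8 to 3362 on wild type arrays, and the higher ones were Dmrt1 (2.50) and Fgf9 (1.80). The lower one, Aard, was named after its values were seen and stood at -1.24 (limma adjusted p = 0.00647), while Sox9 and Cldn11 did not pass. The lowest marker signal on any array was 1.4, and none was listed at 0.

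**Figure D4:**
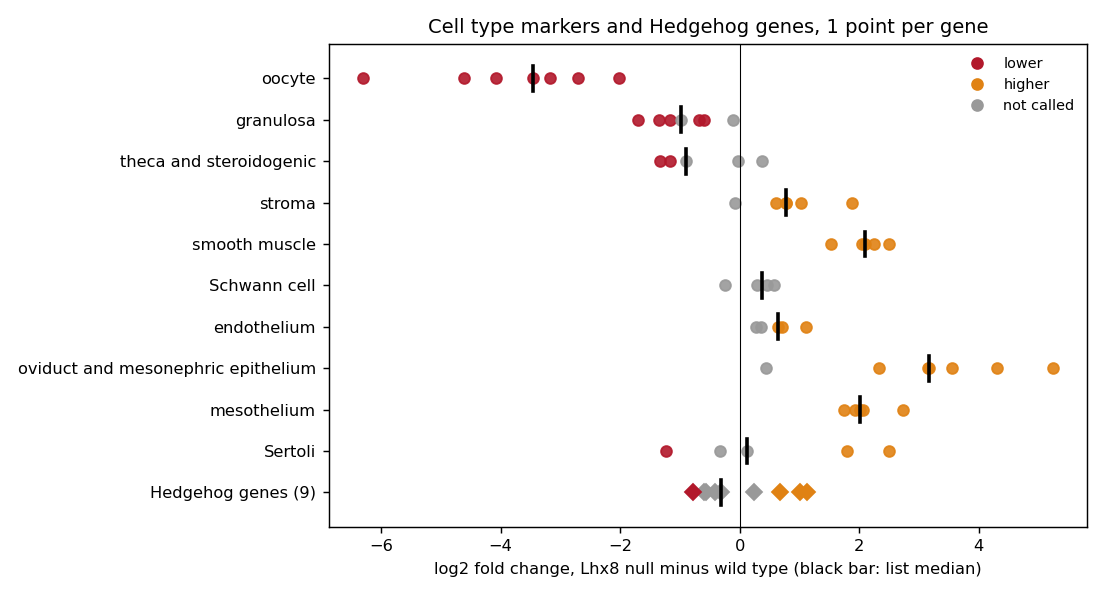
Log2 fold change (Lhx8 null minus wild type, horizontal axis) of each marker gene by cell type (circles) and of the 9 Hedgehog genes (diamonds), at the brightest probe set, with a black bar at each list's median. The Hedgehog genes span -0.78 to 1.13, between the oocyte and granulosa medians at -3.46 and -0.98 on the left and the epithelial medians at 3.16 and 2.01 on the right.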

How the data were processed

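The samples were pools of newborn mouse ovaries, 3 Lhx8 null and 2 wild type, grouped and numbered by their titles. Per the labels' protocols, biotin-labelled target was hybridised, 1 pool to an array. The authors' deposited values are intensities on a linear scale, with a 2% trimmed mean of 500.0 on every array. The wild type arrays were processed with GCOS, per the submitters' processing notes, and no software is named for the null arrays. Nothing says which pools shared a preparation. The p-values measure the spread between arrays within each group. They do not account for a technical difference between the groups.

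Of 45101 probe sets 64 controls were left out. Symbols came from the platform's annotation (34945 probe sets with 1 symbol, 932 with several, which were not named). Intensities were put on log2(signal + 16) and quantile normalised, because array medians differed (7.00 to 7.18 on null, 6.80 to 6.83 on wild type arrays). The 45037 probe sets were tested across the genome with limma 3.58.1 in R 4.3.3 (lmFit, eBayes with trend, two-sided, Benjamini-Hochberg, threshold 0.05), with no brightness filter because dim probe sets belong to the members. No detection calls were used, and the number of arrays limits the precision. The steps were tested on simulated data with changes placed only in probe sets above the median level, so dimmer ones were not covered. Figures used matplotlib 3.10.9 in Python 3.11.15.

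Named genes were the 9 members, up to 3 called lower and 3 called higher of each pathway list, up to 2 of each marker list, Lhx8 and Gdf9; others are marked as chosen after their values were seen, except Lrp2 and uncalled markers. The members and lists were chosen with earlier results of these data known. Some genes of these lists were not analysed here, and counts are over those measured. Alternatives covered scaling, the added constant (1 or 64), a brightness filter (the dimmest 40% of genes left out), averaging of probe sets, the variance model, a replicate block and each array left out.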

Additional observations from a re-analysis of the deposited data

How the results depend on the processing

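Ptch1 stayed lower and called under every alternative run, at -1.09 to -0.73. Smo, Gli2 and Gli3 stayed positive in all of them. With each gene's probe sets averaged, 1 Hedgehog gene was higher in place of 3, with Smo at 0.50 (adjusted p = 0.0509) and Gli3 at 0.39 (adjusted p = 0.0733). Gli3 also lost its call with arrays centred on their medians (0.37) and without a variance trend (0.67, adjusted p = 0.0581), where 2 Hedgehog genes and 7 other pathway genes were higher in place of 3 and 11. Leaving out each null array in turn gave 3 higher Hedgehog genes each time and 8 to 12 higher pathway genes. Over all genes 1730 to 2754 were higher in these fits. With any 1 of the 5 arrays left out, Gli2 stood at 0.97 to 1.24 and Gli3 at 0.61 to 0.72. Smo then stood at 0.79 to 1.23 and Ptch1 at -0.84 to -0.73. Where 1 wild type array was left, it was assumed to vary like the null arrays. Hhip, uncalled throughout, stood at 0.84 without wild type replicate 2 and turned to -0.09 without null replicate 3 and to -0.33 without wild type replicate 3, and Sufu to -0.0034 with probe sets averaged. With the brightness filter, 4 of the 9 Hedgehog genes were tested and 1 was lower and 3 higher. Of all 10916 genes tested under that filter, 2429 were lower and 2791 higher. The labels give replicate numbers 2 and 3 in both groups. Deviations of same-numbered arrays from their group means correlated at 0.0083 and 0.0078. The deviations of the 2 wild type arrays mirror each other, so these correlations cannot decide whether same-numbered arrays were paired. With the replicate block the counts of Hedgehog genes were 1 lower and 3 higher, with Ptch1 at -0.83, Smo at 0.99, Gli2 at 0.96 and Gli3 at 0.69, and the block changed no call of a named member or pathway gene. Over all genes, 2546 higher and 2458 lower calls became 1454 and 1531 without a variance trend. Signals near background limit what can be said of Dhh, Ihh, Shh, Gli1 and Hhip.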
